A study of Mus musculus with 32 samples.

Results

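Arginine can be made in the gut wall by a route through citrulline. Here 8 genes that form citrulline, turn it into arginine or split arginine were followed through the digestive tract of newborn and suckling mice. They were Cps1, Otc, Aldh18a1, Oat, Ass1, Asl, Arg1 and Arg2, taken by gene symbol, and all 8 had a value in all 32 libraries, out of 21203 symbols with a value in every library. The libraries were total RNA of dissected gut regions and formed 16 pairs, in which a wild-type and a percc1-/- library match in region and stage. There were 7 pairs of small intestine (top part at P1, P5 and P15, bottom part at P1, P5, P10 and P20), where P is the postnatal day. A further 5 pairs were of stomach (whole organ at P1 and P5, bottom part at P10, P15 and P20), 3 of large bowel (P1 colon with rectum, P5 colon and P5 rectum) and 1 of whole gut at the embryonic stage E14.5.

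The percc1-/- mice are homozygous for an allele in which the targeted percc1 segment is replaced by a loxP site, after Cre had taken out the neo cassette. W4/129S6 embryonic stem cells were used to make it, and both genotypes come from a line on a mixed 129SvEv and C57BL/6 background. P20 bottom intestine is the stage nearest to weaning in small intestine, and it holds 1 library of each genotype. Whether libraries are of separate animals, and whether regions share an animal, is not said in the labels. Each region and stage has 1 library of each genotype, so p-values measure the spread between these libraries. That spread holds differences between the stages and regions pooled in a fit, and may in part be technical.

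In the liver and the gut, carbamoyl phosphate made by Cps1 (carbamoyl phosphate synthetase) is joined to ornithine by Otc (ornithine transcarbamylase) to give citrulline. Enterocytes make that ornithine from glutamate and proline, through Aldh18a1 (pyrroline-5-carboxylate synthase) and Oat (ornithine aminotransferase). Ass1 (argininosuccinate synthase) and Asl (argininosuccinate lyase) then turn citrulline into arginine, and the arginases Arg1 (cytosolic) and Arg2 (mitochondrial) split arginine into ornithine and urea. From work in pigs and rats, the enterocytes of sucklings make arginine themselves, while those of weaned animals release citrulline, which the kidney converts.

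Levels are in FPKM, a measure of fragments that allows for the length of the transcript and the size of the library, rescaled here so that the libraries share a median ratio. A change was called where the p-value of limma, adjusted by Benjamini and Hochberg over all genes of the fit, was under 0.05, on the scale log2(rescaled FPKM + 1). Differences in RNA of a bulk tissue cannot separate fewer cells of a type from less RNA per cell. The summed level of 9 enterocyte markers was 326 to 507 rescaled FPKM in small intestine, 192 to 259 in large bowel and 79.2 to 168 in stomach. No record carried the symbol Percc1. Between Clcn7 and BC003965, the genes beside it, unnamed records were listed in 5 of 5 wild-type and 0 of 5 percc1-/- stomach libraries, in 1 of 3 wild-type (colon at P5, 1.22 FPKM) and 0 of 3 percc1-/- large bowel libraries, and in 0 of 7 small intestine libraries of either genotype. This region thus checks the genotype labels in every pair only in stomach.

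Several libraries stood apart by markers of other cells, whose part in the levels of the members was not tested. In whole stomach at P1, the enterocyte markers summed to 168 in the percc1-/- library and 79.2 in the wild-type library. In whole stomach at P5, 12 hepatocyte markers summed to 321 in the percc1-/- and 9.88 in the wild-type library. In bottom intestine at P5, squamous epithelium markers summed to 72.7 in the percc1-/- library and 0.8995 in its wild-type partner.

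Across small intestine, Asl was lower at the older stages and Arg2 was higher, Ass1 did not pass the test, and no change was called in the citrulline-forming genes. In the 6 libraries of P10 to P20 against the 8 of P1 and P5, with part and genotype as covariates, 1 of the 7 members with a mean of at least 1 rescaled FPKM in both groups was called, Asl, which was lower. Arg2 was called higher as well, but it passed the filter on low values (a mean of at least 1 over all libraries of the fit) only through the older libraries where it is high, so its call is no separate support. Among all 12772 genes tested, 5.93% were called, 3.47% higher and 2.47% lower.

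**Figure D1:**
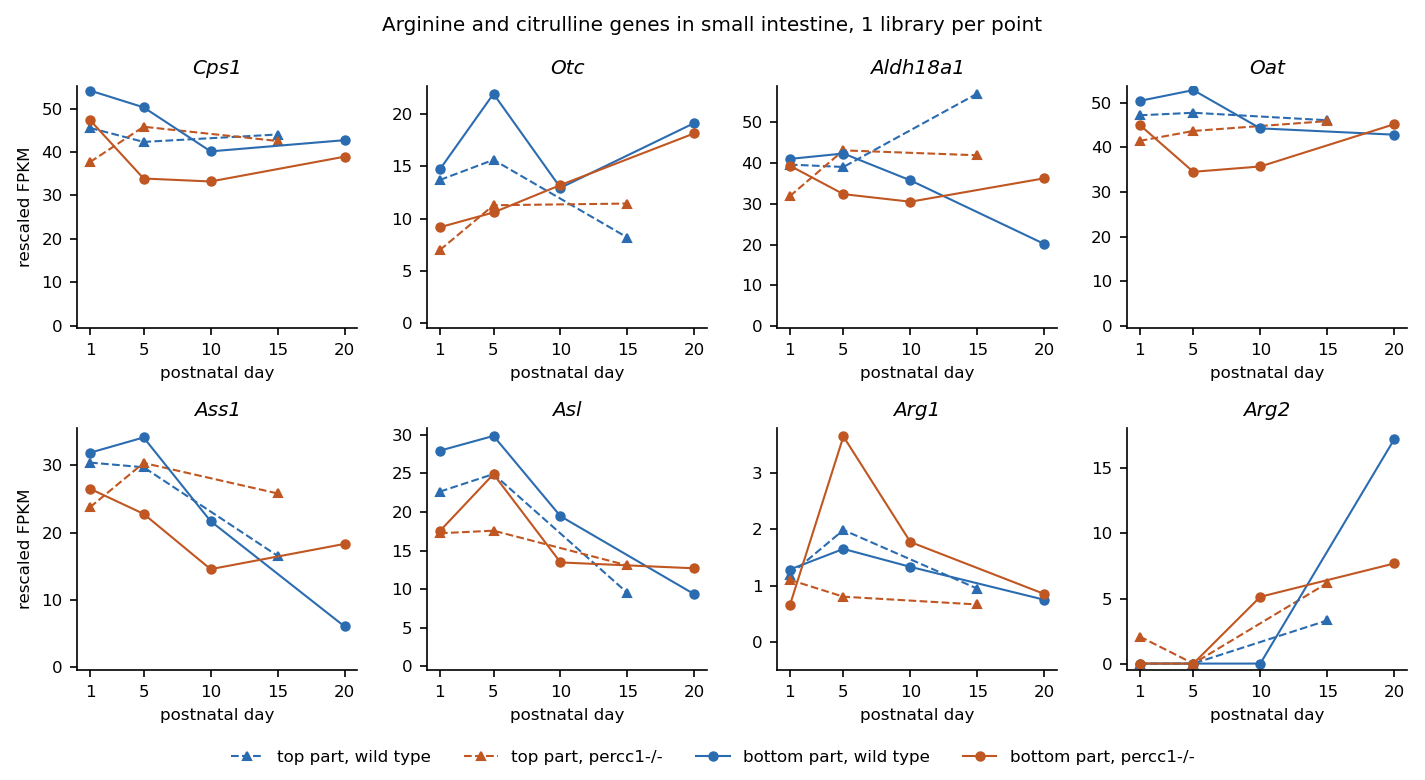
Rescaled FPKM of each gene (y axis) by postnatal day (x axis) in the 14 small intestine libraries, 1 library per point, with triangles for the top part, circles for the bottom part, and colour for genotype. Asl lies between 17.2 and 29.9 at P1 and P5 and between 9.32 and 19.4 later, while Oat stays between 34.5 and 52.8 throughout.

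Asl closes the route, splitting argininosuccinate into arginine and fumarate. In wild-type bottom intestine it stood at 27.9, 29.9, 19.4 and 9.32 rescaled FPKM at P1, P5, P10 and P20, and in percc1-/- bottom intestine at 17.5, 24.9, 13.5 and 12.7. In the top part at P1, P5 and P15 it was 22.6, 24.9 and 9.49 in wild type and 17.2, 17.6 and 13.1 in percc1-/-. The 4 libraries of P15 and P20 were all below the 8 of P1 and P5, and of the P10 libraries the wild-type one lay inside the neonatal range. The mean was 12.9 ± 3.68 (SD, n = 6) at P10 to P20 and 22.8 ± 4.95 (SD, n = 8) at P1 and P5, a log2 change of -0.83 ± 0.15 SE (adjusted p = 0.0105). The call was kept whichever library was left out (adjusted p from 0.00800 to 0.0463). It was lost when unnamed records lying inside the gene were added to it (-0.70, adjusted p = 0.0784), in the wild-type libraries alone (-1.12, adjusted p = 0.0723) and in the percc1-/- libraries alone (-0.54, adjusted p = 0.452).

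Ass1 joins citrulline to aspartate and is the step before Asl. In bottom intestine at P1, P5, P10 and P20 it had 31.9, 34.2, 21.7 and 6.00 rescaled FPKM in wild type and 26.5, 22.8, 14.54 and 18.3 in percc1-/-. In the top part at P1, P5 and P15 it had 30.4, 29.7 and 16.5 in wild type and 23.8, 30.4 and 25.8 in percc1-/-. The lowest small intestine library was thus the wild-type one at P20, and the groups overlapped through percc1-/- top intestine at P15. The difference between P10 to P20 (17.1 ± 6.76, SD, n = 6) and P1 and P5 (28.7 ± 3.98, SD, n = 8) was -0.77 ± 0.24 SE on the log2 scale and did not pass (adjusted p = 0.0714). It passed without wild-type bottom intestine at P10 (-0.88, adjusted p = 0.0496) and without wild-type bottom intestine at P20 (-0.54, adjusted p = 0.0393).

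In the wild-type libraries alone the stage difference of Ass1 was -1.19 (adjusted p = 0.154), and in the percc1-/- libraries alone it was -0.36 (adjusted p = 0.650). The difference between the genotypes in this respect, tested as an interaction, was 0.79 ± 0.41 SE and did not pass (adjusted p = 0.815). At P20 the deposited bounds of the estimate, rescaled in the same way, ran from 4.99 to 7.01 in the wild-type library and from 14.9 to 21.7 in the percc1-/- library. These bounds cover the estimate within a library and not the spread between animals. Of the other members at P20, Aldh18a1 had bounds from 18.7 to 21.5 in wild type and 34.2 to 38.3 in percc1-/-, and Arg2 had 15.2 to 19.3 against 6.41 to 8.98.

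The Ass1 values rest partly on reads that a processed copy can share. Gm5424, an intronless pseudogene at chr10:61533871-61535109 on the plus strand of NCBIM37 (the assembly also called mm9), matches the 1239 bp Ass1 coding sequence with 6 differences, or 99.5% identity, and the longest run without a difference is 398 bp. The 90 bases of coding positions 354 to 443 are shown because they hold 2 of those differences, which are in capitals.
Ass1: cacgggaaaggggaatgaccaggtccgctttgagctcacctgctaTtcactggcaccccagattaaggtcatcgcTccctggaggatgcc
Gm5424: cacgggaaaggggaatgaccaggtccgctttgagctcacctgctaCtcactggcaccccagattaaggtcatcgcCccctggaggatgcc
In the 32 libraries Ass1 was listed at 3.32 to 4.73 times the level of Gm5424 (median 3.78), and over the small intestine libraries both had a Pearson correlation of 0.998. Fragments of the near-identical stretches cannot be given to either locus with certainty. With both summed, the stage difference in small intestine was -0.78 (adjusted p = 0.0742), close to that of Ass1 as named.

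Arg2, the mitochondrial arginase, is described by its values, since it passed the filter on low values only through the older libraries. At P1 and P5 it was listed at 0 in 7 of 8 libraries, the exception being percc1-/- top intestine at P1 with 2.08 rescaled FPKM. At P10 it was listed at 0 in wild-type bottom intestine and at 5.13 in the percc1-/- library, and at P15 in top intestine it had 3.32 in wild type and 6.19 in percc1-/-. At P20 in bottom intestine it had 17.2 in wild type and 7.69 in percc1-/-, the highest values of the series. The 5 older libraries above 0 all exceeded the 8 neonatal ones.

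On the log2 scale the difference of Arg2 was 2.32 ± 0.50 SE (adjusted p = 0.0187, from group means of 6.60 and 0.260). Having passed the filter through the older group alone, Arg2 could enter this test only with such a difference. Its size depends on the pseudocount, and no fold is given against libraries listed at 0. The call was lost without wild-type top intestine at P15 (2.40, adjusted p = 0.0541) and in either genotype alone (2.10, adjusted p = 0.240 in wild type and 2.53, adjusted p = 0.204 in percc1-/-). Without the P10 libraries it was 2.86 (adjusted p = 0.00588).

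A listing at 0 is not taken as absence of Arg2 transcripts. Over the 32 libraries it was listed at 0 in 21, and the lowest listed value above 0 was 2.05 FPKM as deposited, so that low values are missing from its range. Arg2 lies at chr12:80231764-80257288 on the plus strand (NCBIM37) with 8 exons, and its 3′ end overlaps Vti1b, a vesicle fusion gene on the other strand, by 285 bp. Vti1b had 13.9 to 18.4 rescaled FPKM in the neonatal and 15.3 to 21.0 in the older small intestine libraries. The tables also hold 46 unnamed records inside Arg2, all 46 wholly in introns and 40 of them in intron 7. With these added the difference was 1.52 and the call was lost (adjusted p = 0.0780).

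No citrulline-forming gene passed the test for stage. Cps1 was 40.3 ± 3.92 (SD, n = 6) rescaled FPKM at P10 to P20 and 44.6 ± 6.55 (SD, n = 8) at P1 and P5 (log2 change -0.14 ± 0.09 SE, adjusted p = 0.428). Oat was 43.3 ± 3.91 against 45.3 ± 5.68, a log2 change of -0.05 ± 0.08 SE (adjusted p = 0.758). Aldh18a1 was 36.9 ± 12.3 against 38.6 ± 4.24, a log2 change of -0.07 ± 0.16 SE (adjusted p = 0.829), with a wider spread among the older libraries. Its highest value, 57.0, was in wild-type top intestine at P15 and its lowest, 20.1, in wild-type bottom intestine at P20, where the percc1-/- library had 36.3. Otc was 13.9 ± 4.15 against 13.004 ± 4.63, a log2 change of 0.04 ± 0.19 SE (adjusted p = 0.928). Arg1, the arginase of the liver urea cycle, was low in small intestine, with 0.666 to 1.78 at P10 to P20 and 0.650 to 3.65 at P1 and P5 (log2 change -0.30 ± 0.21 SE, adjusted p = 0.447).

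Tests within a single part had fewer libraries, and the members did not pass in any of them. In bottom intestine at P20 (2 libraries) against P1, P5 and P10 (6), 0 of 8 members were called beside 0.0466% of all 12870 genes, and 3 of the 8 had an unadjusted p under 0.05. These were Arg2 (3.22 ± 0.72 SE, adjusted p = 0.168), Asl (-0.91 ± 0.28 SE, adjusted p = 0.223) and Ass1 (-1.13 ± 0.41 SE, adjusted p = 0.289). The wild-type libraries alone gave calls for Arg2 (4.19, adjusted p = 0.0129) and Ass1 (-2.09, adjusted p = 0.0441) there, in a fit with a lone P20 library whose spread is taken from the other stages. Leaving out percc1-/- bottom intestine at P10 also gave a call for Arg2 (3.69, adjusted p = 0.00833).

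In top intestine at P15 (2 libraries) against P1 and P5 (4), limma called 0 of 8 members beside 0.0922% of 13019 genes, and Arg2 (2.07 ± 0.43 SE, adjusted p = 0.140) and Asl (-0.81 ± 0.20 SE, adjusted p = 0.176) were the 2 with an unadjusted p under 0.05. At P20 and at P15 alike, Arg2 passed the filter through the older libraries alone. In bottom intestine at P10 against P1 and P5 it called 0 of the 7 members that passed the filter, beside 0.0465% of 12912 genes. Ass1 (-0.65 ± 0.12 SE, adjusted p = 0.353) and Asl (-0.57 ± 0.16 SE, adjusted p = 0.401) had an unadjusted p under 0.05 there. These comparisons share their neonatal libraries with the one over all small intestine and are not separate support for it.

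Markers of the suckling and the weaned enterocyte were set beside the stages of these libraries. Sis (sucrase-isomaltase) and Treh (trehalase), disaccharidases that appear at weaning, were 2 of 3 weaned markers tested and both were called higher, Treh after passing the filter through the older libraries alone. The third, Mgam, was not called. Summed, the 3 had 38.1 to 78.7 rescaled FPKM at P1 and P5 and 62.3 to 178 at P10 to P20. Sis ran from 1.203 to 1.86 rescaled FPKM at P1 and P5 and from 2.40 to 58.2 at P10 to P20 (log2 change 2.77 ± 0.50 SE, adjusted p = 0.00883). Of the 6 suckling markers 0 were called and 0 of 9 enterocyte markers were, beside 5.93% of all 12772 genes tested. At P10 Sis was at 2.40 in the wild-type and 15.045 in the percc1-/- library, and at P15 it was at 8.44 and 18.3, so that in each of these pairs the library with more Sis also had more Arg2. At P20 it was at 58.2 in wild type and 46.0 in percc1-/-, and Arg2 was again higher in the library with more Sis. In top intestine at P1 it was the reverse, with Sis at 1.55 in wild type and 1.21 in percc1-/- and Arg2 at 0 and 2.08. The 3 weaned markers summed to 62.3 in wild type and 62.6 in percc1-/- at P10. At P15 they summed to 69.4 and 92.5, at P20 to 178 and 149, and in top intestine at P1 to 67.9 and 60.3. A link between Arg2 and these markers was not tested.

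Genes around the route were described from lists, for the same comparison of stages in small intestine. In it 5.93% of all 12772 genes tested were called, 3.47% higher and 2.47% lower. Of 4 tested carriers and activators of the urea cycle, 1 was called lower. It was Slc25a13, the aspartate-glutamate carrier, with 8.29 ± 1.14 (SD, n = 6) rescaled FPKM at P10 to P20 and 11.1 ± 1.83 (SD, n = 8) at P1 and P5 (log2 change -0.38 ± 0.10 SE, adjusted p = 0.0454). The activator of Cps1, Nags, had -0.27 ± 0.16 SE (adjusted p = 0.368). Of 9 genes of glutamate, glutamine and proline supply, 0 were called. The 2 with the smallest p were the aspartate aminotransferases Got1 (-0.51 ± 0.15 SE, adjusted p = 0.0672) and Got2 (-0.17 ± 0.06 SE, adjusted p = 0.130).

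Of 15 genes that use arginine, 1 was called lower, beside 2.47% of all genes tested. It was Gatm, the enzyme that starts creatine synthesis from arginine and glycine. It had 2.34 to 7.98 rescaled FPKM at P10 to P20 (median 4.004) and 6.09 to 34.4 at P1 and P5 (median 13.4), a log2 change of -1.62 ± 0.29 SE (adjusted p = 0.00864). Of 10 amino acid transporters, 1 was called higher, beside 3.47% of all genes tested. It was Slc1a1, a carrier of glutamate and aspartate. It had 3.22 to 19.0 at P10 to P20 (median 5.83) and 0.581 to 3.14 at P1 and P5 (median 1.82), a log2 change of 1.53 ± 0.31 SE (adjusted p = 0.0155), and the groups did not overlap. The median log2 change was -0.15 for the carriers, -0.08 for supply, 0.03 for arginine use and -0.07 for transport, beside 0.00 over all genes tested.

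Along the length of the neonatal small intestine no member was called. Between the 4 top and the 4 bottom libraries of P1 and P5, limma called 0 of the 7 members tested, beside 0.00782% of 12786 genes. Asl was the 1 member with an unadjusted p under 0.05, at 20.6 ± 3.796 (SD, n = 4) rescaled FPKM in the top and 25.1 ± 5.42 (SD, n = 4) in the bottom part (log2 change -0.26 ± 0.09 SE, adjusted p = 0.732).

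Between regions the members differed in where they were highest. Ordered by the mean of each pair, the 7 small intestine pairs held ranks 1 to 7 of 16 for Cps1, Otc, Oat and Aldh18a1. The libraries of rank 7 did not overlap those of rank 8 for any of these genes. The share of all genes with such an order was not counted, so it is no trait particular to them. For Oat, however, percc1-/- bottom intestine at P5, of rank 6, had 34.5 rescaled FPKM. This was below the 35.6 of wild-type colon with rectum at P1, of rank 8. For Ass1 the small intestine held ranks 1 to 6, and bottom intestine at P20 came at rank 10, between rectum and whole gut. For Asl the small intestine held ranks 1 to 5, with top intestine at P15 at rank 8 and bottom intestine at P20 at rank 9. For Arg1 the whole stomach held ranks 1 and 2, and for Arg2 bottom intestine at P20 held rank 1. Most neighbours in these orders overlapped, from 10 of the neighbouring pairs for Oat to 15 for Ass1, so most neighbouring ranks are not separated. Among the exceptions within a region was Arg1 in whole stomach, at 19.3 and 14.7 at P1 and 12.8 and 13.1 at P5 (wild type and percc1-/-).

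**Figure D2:**
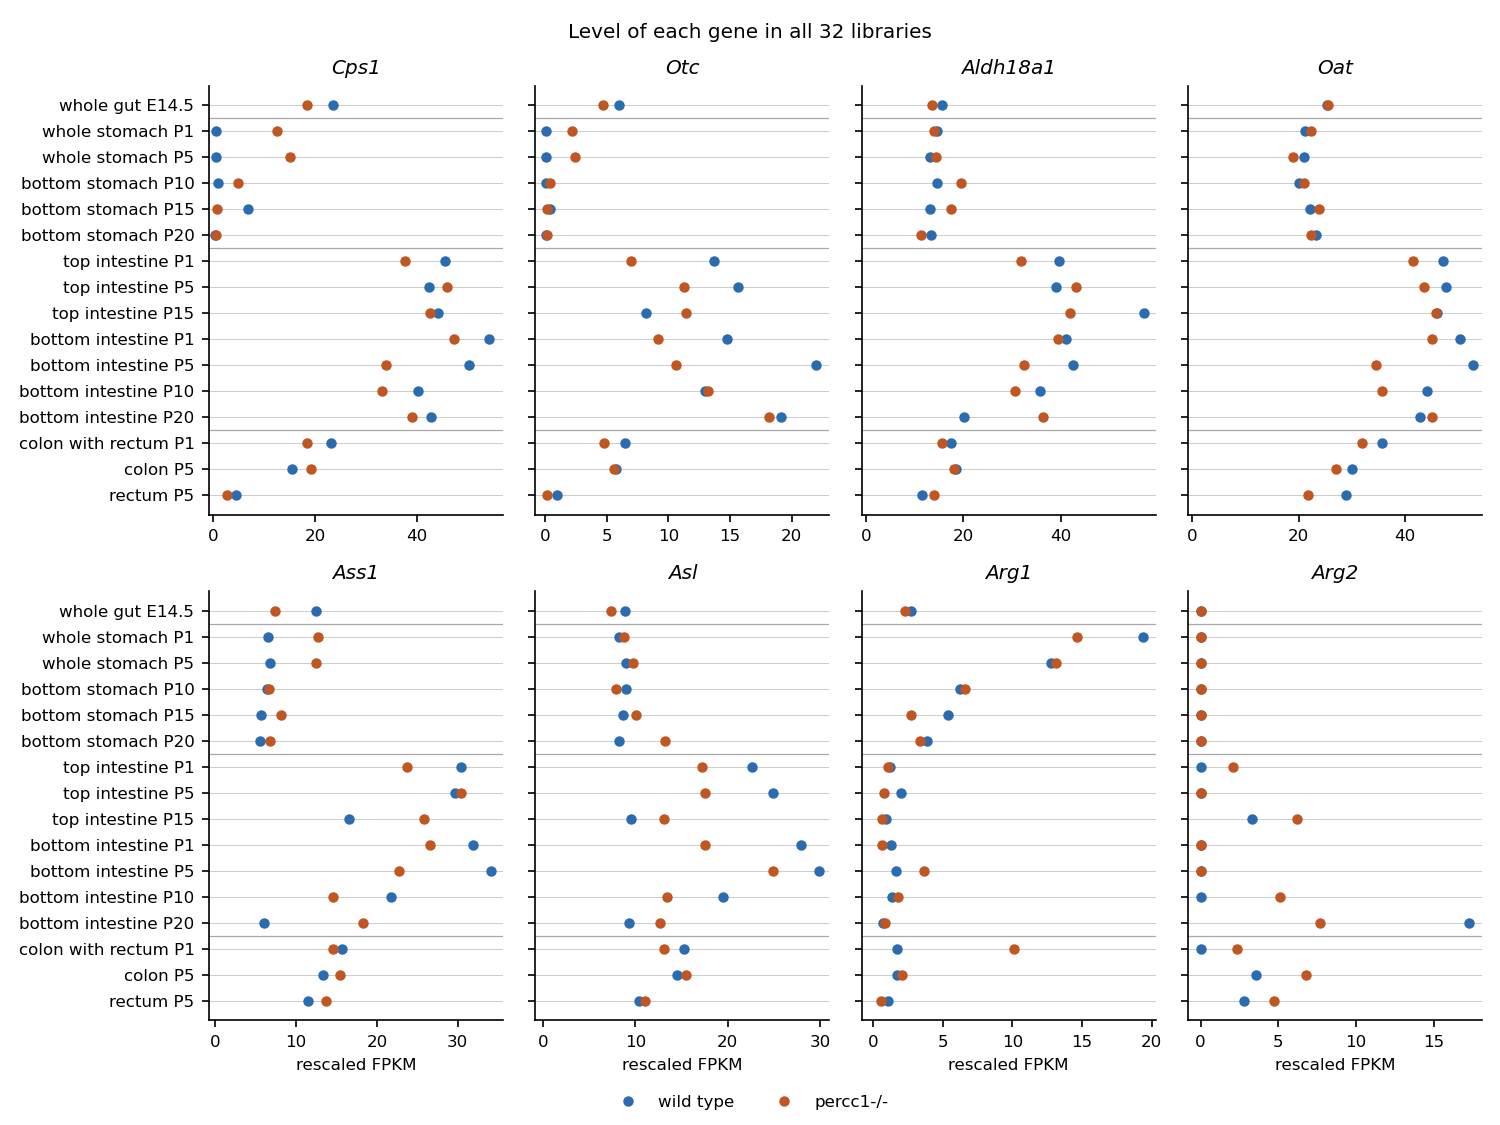
Rescaled FPKM of each gene (x axis) in all 32 libraries, by region and stage (y axis), with 1 wild-type and 1 percc1-/- point per row. By the mean of each pair, Cps1, Otc, Aldh18a1 and Oat are highest in small intestine at every stage and Arg1 is highest in whole stomach. Arg2 is at 0 in stomach and whole gut.

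At P1 and P5, whole stomach (4 libraries) was compared with small intestine (8), and 7 of 7 members tested were called, beside 43.7% of 13166 genes (23.7% higher and 20% lower in stomach). Cps1, Otc, Aldh18a1, Oat, Ass1 and Asl were lower in stomach, by 1.08 (Oat) to 3.23 (Cps1) on the log2 scale, with adjusted p from 2.43e-06 to 0.000694. Oat had 20.8 ± 1.36 (SD, n = 4) rescaled FPKM in stomach and 45.3 ± 5.68 (SD, n = 8) in small intestine. Aldh18a1 had 14.02 ± 0.632 (SD, n = 4) against 38.6 ± 4.24 (SD, n = 8). Arg1 was higher in stomach, with 14.7 and 19.3 at P1 and 13.1 and 12.8 at P5 (percc1-/- and wild type), against 0.650 to 3.65 in small intestine (log2 change 2.71 ± 0.25 SE, adjusted p = 1.47e-05). Arg2 was listed at 0 in all 10 stomach libraries and in both whole gut libraries.

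The stomach level of Cps1 and Otc differed widely between libraries. Cps1 was 0.560 and 0.6001 rescaled FPKM in the wild-type whole stomachs of P1 and P5 and 12.504 and 15.006 in the percc1-/- ones. Otc was 0.0264 and 0.0265 in those wild-type libraries and 2.195 and 2.44 in the percc1-/- ones. The percc1-/- library of P1 is the one with enterocyte markers at 168 and that of P5 the one with hepatocyte markers at 321, and enterocytes and hepatocytes are both known to express Cps1 and Otc. In bottom stomach Cps1 was at 4.81 in percc1-/- and 0.913 in wild type at P10, with enterocyte markers at 137 and 93.1. At P15 it was at 0.743 in percc1-/- and 6.93 in wild type, with enterocyte markers at 116 and 159.5. At P20 it was at 0.505 in percc1-/- and 0.275 in wild type, with enterocyte markers at 112 and 108. The part of these marker cells in the differences was not tested.

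The promoters of Ass1, listed at 5.58 rescaled FPKM or more in every library, and Otc, listed at 0.0264 in the lowest library and 22.0 in the highest, are shown because these members lie far apart in how widely they were found. The 250 bases before the start are from RefSeq (GRCm38.p6), where 4 of the 8 members have an entry, chr2:31470020-31470269 on the plus strand for Ass1 and chrX:10252055-10252304 on the plus strand for Otc. Capitals mark matches to any of the motifs searched.
Ass1: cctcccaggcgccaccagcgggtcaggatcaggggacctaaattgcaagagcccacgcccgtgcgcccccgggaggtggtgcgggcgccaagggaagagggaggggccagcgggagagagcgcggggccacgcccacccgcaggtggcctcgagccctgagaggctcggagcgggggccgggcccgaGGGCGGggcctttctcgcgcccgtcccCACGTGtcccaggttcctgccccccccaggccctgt
Otc: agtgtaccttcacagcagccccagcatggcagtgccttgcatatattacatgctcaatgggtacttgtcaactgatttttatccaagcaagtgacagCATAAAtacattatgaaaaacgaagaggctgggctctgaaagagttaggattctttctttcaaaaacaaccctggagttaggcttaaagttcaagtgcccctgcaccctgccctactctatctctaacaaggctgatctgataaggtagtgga
The Ass1 stretch is 75.6% G or C and the Otc stretch 43.6%, beside a median of 52.4% over 32851 promoters. The Aldh18a1 stretch has 57.2%. Ass1 holds the GC box GGGCGG and the E-box CACGTG, and Otc holds the CDX type motif TTTATG on the reverse strand. On either strand these letters stand in 32.7%, 6.02% and 10.8% of all promoters. Aldh18a1 holds all 3 of them and Oat holds the CCAAT box CCAAT, found in 33.8%, on both strands. The TATA box TATAAA (12.4% of promoters), the HNF4 type motif CAAAGTCCA (0.384%) and the glucocorticoid receptor type motif TGTTCT (16.1%) were in none of the 4.

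In large bowel the pattern at P1 and P5 was tested against bottom intestine, whose 4 libraries also enter the stomach comparison. Of the 7 members with a mean of at least 1 in both groups 6 were called, all lower, beside 26% of 13128 genes (13.5% higher and 12.5% lower in large bowel). Aldh18a1 (-1.23 ± 0.14 SE, adjusted p = 0.00128), Ass1 (-0.96 ± 0.13 SE, adjusted p = 0.00198), Asl (-0.86 ± 0.16 SE, adjusted p = 0.00652) and Oat (-0.58 ± 0.10 SE, adjusted p = 0.00420) were lower. Cps1 and Otc were lower as well (-1.80 ± 0.48 SE, adjusted p = 0.0231, and -1.75 ± 0.53 SE, adjusted p = 0.0386), but these calls turned on single libraries. That of Cps1 was lost without either P5 bottom intestine library (adjusted p = 0.0564 and 0.103), and that of Otc without any of 7 libraries (adjusted p from 0.0522 to 0.161), namely all 4 of bottom intestine, both of colon with rectum and wild-type rectum.

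Within the large bowel, Cps1 and Otc were lowest in rectum. Cps1 had 18.5 and 23.1 rescaled FPKM in colon with rectum at P1, 19.2 and 15.6 in colon at P5 and 2.78 and 4.50 in rectum at P5 (percc1-/- and wild type). Otc had 4.74 and 6.48, 5.55 and 5.76, and 0.180 and 0.979 in the same libraries. Oat and Asl had 21.8 and 28.9, and 11.008 and 10.4, in the rectum libraries. With 1 pair per part these are values with no test.

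Arg2 is given for large bowel as values without a test, since it was listed at 0 in the whole group compared and passed the filter only through the large bowel libraries. It was listed at 2.32 (percc1-/-) and 0 (wild type) in colon with rectum at P1, at 6.76 and 3.53 in colon at P5, and at 4.70 and 2.76 in rectum at P5, and at 0 in all 4 libraries of bottom intestine at P1 and P5. Arg1 did not pass (0.29 ± 0.50 SE, adjusted p = 0.715). It had 10.1 in percc1-/- colon with rectum at P1 and 0.552 to 2.08 in the other 5 libraries, and in the library at 10.1 the neutrophil markers summed to 74.6, against 9.42 in its wild-type partner. Alternatively activated macrophage markers were at 2.42 and 0.201 in that pair. In colon at P5 the neutrophil markers were at 61.2 in the percc1-/- and 4.09 in the wild-type library, while Arg1 was at 2.08 and 1.72. The part of these cells in the Arg1 values was not tested.

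**Figure D3:**
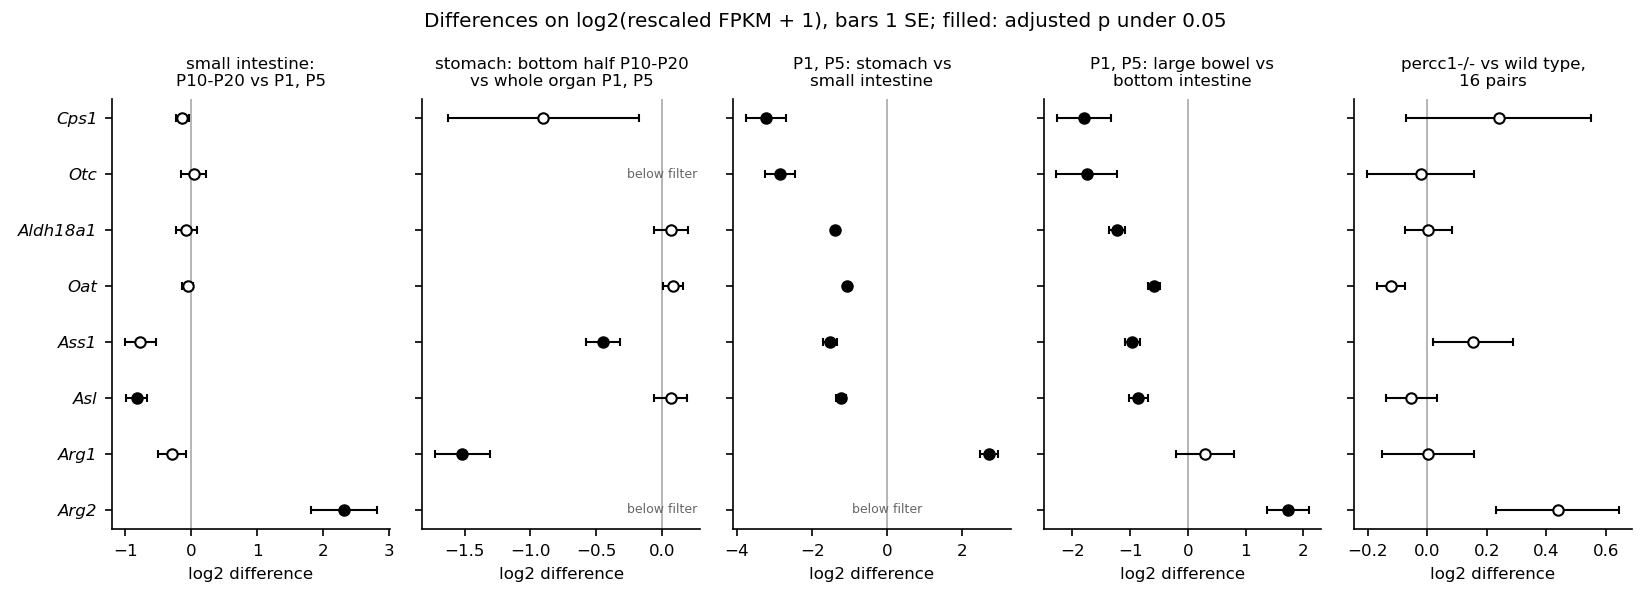
Difference of each gene on the scale log2(rescaled FPKM + 1) (x axis, bars 1 SE) in 5 comparisons, with filled points for an adjusted p under 0.05 and genes below the filter named as such. Arg2 and Asl are filled for stage in small intestine, and no gene is filled for genotype. Where Arg2 is filled it passed the filter through the group in which it is high.

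In stomach, stage and dissection cannot be told apart, since P1 and P5 are whole organs and P10 to P20 are the bottom part. Between them 2 of 6 members tested were called, beside 17.1% of 13266 genes (8.07% higher and 9.07% lower), both lower in the bottom part. Arg1 was at 12.8 to 19.3 rescaled FPKM in the 4 whole stomachs and at 2.73 to 6.60 in the 6 bottom parts, without overlap (log2 change -1.52 ± 0.21 SE, adjusted p = 0.00159). Squamous epithelium markers, which mark the forestomach lining, summed to 105 to 137 in the whole stomachs and to 27.7 to 77.5 in the bottom parts. Of their 8 genes 4 had a value in all libraries. The part of squamous tissue in the Arg1 difference was not tested. Macrophage markers summed to 19.0 to 25.5 in the former and 11.7 to 22.6 in the latter.

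Ass1 in stomach was 9.62 ± 3.46 (SD, n = 4) against 6.50 ± 0.921 (SD, n = 6), a log2 change of -0.45 ± 0.13 SE (adjusted p = 0.0384). That call was lost with the FPKM as deposited (-0.23, adjusted p = 0.298), with unnamed records added (-0.22, adjusted p = 0.381) and in the wild-type libraries alone (-0.15, adjusted p = 0.595). It was also lost without any of 7 libraries, the 5 percc1-/- ones and the wild-type ones of P15 and P20 (adjusted p from 0.0588 to 0.119). Ass1 was at 12.7 and 12.51 in the percc1-/- whole stomachs with the enterocyte and hepatocyte markers, and at 6.48 and 6.78 in the wild-type ones. Oat, Aldh18a1 and Asl stayed within 0.08 of 0 on the log2 scale, with adjusted p of 0.502, 0.774 and 0.765.

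**Figure D4:**
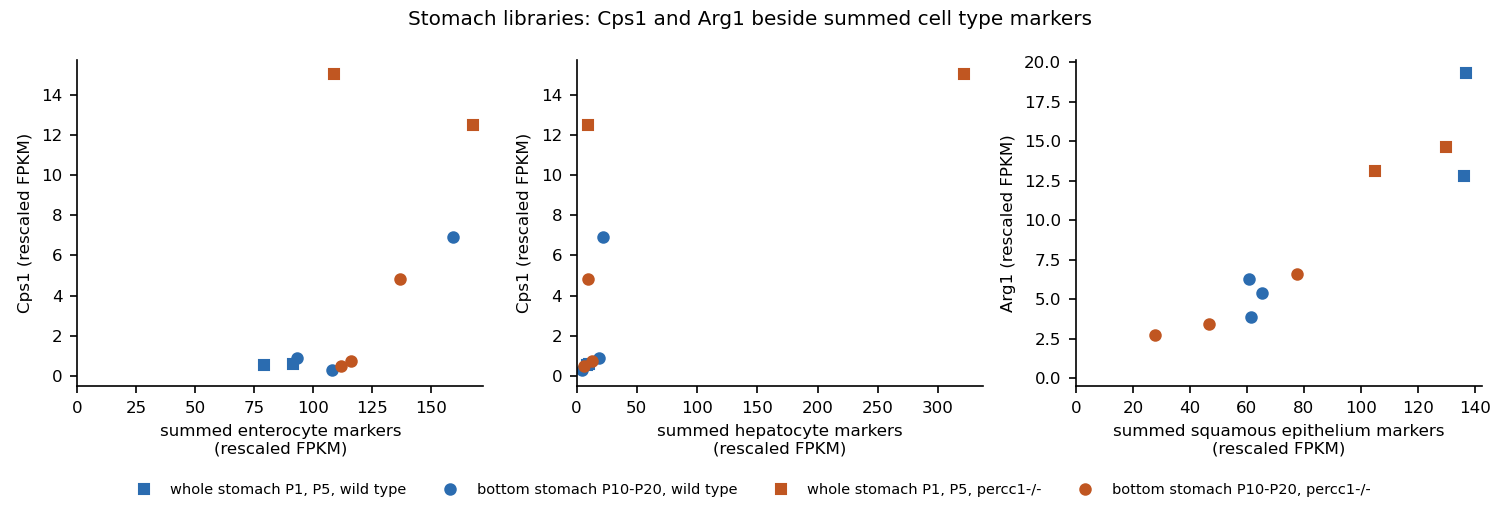
Rescaled FPKM of Cps1 and Arg1 (y axes) in the 10 stomach libraries beside the summed rescaled FPKM of enterocyte, hepatocyte and squamous epithelium markers (x axes), with squares for whole stomach and circles for the bottom part. The 2 highest Cps1 values, 12.504 and 15.006, are the percc1-/- whole stomachs, and the 4 Arg1 values of 12.8 or more are those with squamous markers at 105 or more.

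Between genotypes no member was called. Over all 16 pairs limma called 0 of 8 members, beside 0.887% of 13084 genes, and 2 of the 8 had an unadjusted p under 0.05. These were Oat (-0.12 ± 0.05 SE, lower in percc1-/- in 11 of 16 pairs, adjusted p = 0.251) and Arg2 (0.44 ± 0.21 SE, higher in 6 pairs, lower in 1 and listed at 0 in both libraries of 9, adjusted p = 0.372). The other 6 members had log2 differences between -0.05 (Asl) and 0.24 (Cps1). Within small intestine 0 of 8 were called beside 0.117% of 12772 genes, and the 2 with an unadjusted p under 0.05 were Cps1 (-0.19 ± 0.08 SE, lower in 6 of 7 pairs, adjusted p = 0.469) and Oat (-0.19 ± 0.08 SE, lower in 6 of 7 pairs, adjusted p = 0.492).

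**Figure D5:**
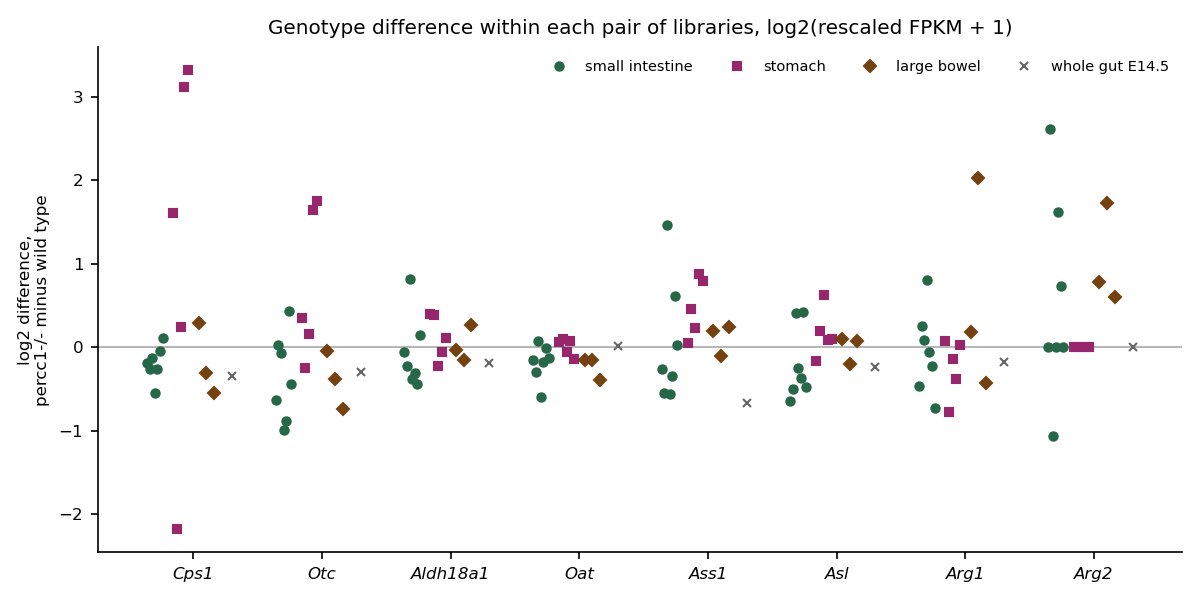
Difference between the percc1-/- and the wild-type library of each pair (y axis, log2 of rescaled FPKM + 1) for each gene (x axis), with symbols for organ. Otc lies below 0 in the 4 neonatal small intestine pairs, and Cps1 spreads from -2.18 to 3.32 among stomach pairs.

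Otc was lower in the percc1-/- library of each neonatal small intestine pair, though no test of it passed. At P1 it had 14.7 rescaled FPKM in wild-type and 9.17 in percc1-/- bottom intestine, and 13.7 against 6.99 in top intestine. At P5 it had 22.0 against 10.6 in bottom and 15.6 against 11.3 in top intestine. The percc1-/- library was lower in 4 of 4 neonatal pairs, with deposited bounds that did not overlap in any of them. The bounds of Asl, Ass1 and Cps1 were also apart in most of these pairs. The share of all genes that were lower in every neonatal pair, or had bounds apart, was not counted. At P10, P15 and P20 the wild-type and percc1-/- values were 12.9 and 13.2, 8.18 and 11.4, and 19.2 and 18.2. Neither the genotype difference in the 4 neonatal pairs alone (-0.73, adjusted p = 0.203) nor the change of that difference with age (0.86 ± 0.19 SE, unadjusted p = 0.00202, adjusted p = 0.815) passed, and for the latter 0% of 12772 genes were called and 749 had an unadjusted p under 0.05. Of the 8 members only Otc had an unadjusted p under 0.05 for that change.

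Asl and Oat were also lower in percc1-/- in 4 of 4 neonatal small intestine pairs, and Asl was higher in 2 of 3 older ones. The change of the Asl difference with age was 0.55 ± 0.24 SE (adjusted p = 0.815). Enterocyte markers in those neonatal pairs summed to 442 to 478 in the wild-type and 358 to 454 in the percc1-/- libraries. Markers of other cells moved further in these pairs. Neutrophil markers were at 4.21 to 7.26 in the wild-type and 11.3 to 41.8 in the percc1-/- libraries. In top intestine the exocrine pancreas markers were at 122 in wild type and 8.10 in percc1-/- at P1, and at 158 and 19.6 at P5. Parietal and chief cell markers were at 7.42 and 104 in top intestine at P1 and at 0.848 and 18.3 in bottom intestine at P5. Weaned enterocyte markers were at 78.7 in wild type and 40.1 in percc1-/- in bottom intestine at P5, and at 72.4 and 38.1 in top intestine at P5. These sums were mostly Mgam, since Sis had 1.83 or less and Treh 2.31 or less in these libraries. Sis went the other way, being higher in percc1-/- in both pairs, while Treh was lower. The sums are thus no shift of the weaned markers as a set. The part of the cells marked by any of these lists in the differences was not tested.

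In stomach 0 of 6 members tested were called for genotype beside 0.0226% of 13266 genes, and the 1 with an unadjusted p under 0.05 was Ass1, higher in percc1-/- in 5 of 5 pairs (0.48 ± 0.14 SE, adjusted p = 0.988). Without the whole stomach pair of P1, which differs in enterocyte markers, it was 0.38 (adjusted p = 0.9999), and without that of P5, which differs in hepatocyte markers, 0.40 (adjusted p = 0.9997). In large bowel 0 of 8 were called beside 0.015% of 13369 genes, and Arg2 (1.04 ± 0.26 SE, higher in 3 of 3 pairs, adjusted p = 0.407) and Oat (-0.23 ± 0.09 SE, lower in 3 of 3 pairs, adjusted p = 0.499) had an unadjusted p under 0.05. Between stomach and small intestine the genotype difference of 0 of 8 members differed past the threshold, beside 0.0153% of 13047 genes, and Otc had the smallest p (1.09 ± 0.37 SE, adjusted p = 0.897). In the lists around the route 0 genes were called for genotype, either over all pairs or within small intestine, beside 0.887% and 0.117% of all genes tested. In whole gut at E14.5, with 1 library of each genotype and no test, Ass1 was at 12.4 in wild type and 7.42 in percc1-/-, Cps1 at 23.6 and 18.4, and Otc at 6.00 and 4.71, with hepatocyte markers at 189 and 151.

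Likeness among the members was taken over the 14 small intestine libraries, as a Pearson correlation of log2 levels that share stage, part and genotype as sources of spread, so no p is given. Ass1 and Asl had 0.776, Cps1 and Oat 0.877, and Arg2 had -0.859 with Asl and -0.803 with Ass1. Otc had between -0.29 and 0.37 with the other 7 members. Of 8674 genes at 5 rescaled FPKM or more, Arg2 was nearest to B4galnt2 (0.945), Sis (0.935) and Cdcp1 (0.922), with 8 of the 14 Arg2 values listed at 0. Ass1 was nearest to Gm5424 (0.998), F10 (0.980) and Cxxc5 (0.971), and Asl to Atp6v1a (0.968), Dmxl2 (0.949) and Mfsd5 (0.948). Aldh18a1 was nearest to Fcgrt (0.959), the neonatal Fc receptor and 1 of the suckling markers, and then to Sema6d (0.910) and Xylb (0.908). Otc was nearest to Tspan7 (0.926), Swi5 (0.913) and Slc34a2 (0.896), Oat to Dpyd (0.908), Agmo (0.908) and Cps1, and Cps1 to Ddx58 (0.895), Cmtm6 (0.882) and Oat. For Arg1 the nearest were Cnn2 (0.863), Col12a1 (0.858) and Lamb1 (0.850).

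The other members lie at chr1:67169600-67277833 (Cps1, 38 exons, plus strand), chrX:9829431-9898150 (Otc, 10 exons, plus), chr19:40624747-40662953 (Aldh18a1, 19 exons, minus), chr7:139749158-139768081 (Oat, 10 exons, minus), chr2:31325727-31376192 (Ass1, 16 exons, plus), chr5:130487128-130501002 (Asl, 16 exons, minus) and chr10:24635014-24647276 (Arg1, 8 exons, minus) on NCBIM37. Aldh18a1 overlaps the pseudogene Gm15801 on the same strand by 522 bp. Oat lies within an annotated span of Fgfr2 on the same strand and has an intronless match on chromosome X (88.1% identity over its 1320 bp coding sequence) and a partial match on chromosome 3 (80.0%), so its values could also include fragments of other loci.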

How the data were processed

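Total RNA libraries were stranded and depleted of ribosomal RNA by the Ribo-Zero method, per the labels' protocols. The authors deposited 1 table of FPKM with lower and upper bounds for each of the 32 libraries. The submitters' processing notes name the mm9 genome with TopHat2 2.0.13, Cufflinks 2.2.1 and SAMtools 0.1.18, and for the annotation no version is given in the sources used here. The files hold no counts, so depth is unknown and no counting interval is given. The highest FPKM of any record was 62.5 to 214 per library, and records with a symbol held 16.8 to 60.2% of the FPKM sum. A 0 is given as listed at 0, since 51 of the 4643 genes averaging 10 FPKM or more were at 0 somewhere. Per gene symbol the FPKM were summed here, and libraries were rescaled by the median ratio over 10023 genes above 1 FPKM in all libraries (factors 0.864 to 1.38).

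Tests used limma 3.58.1 in R 4.3.3 (trended, robust, two-sided) on log2(rescaled FPKM + 1), for genes averaging 1 or more, with Benjamini-Hochberg adjustment over all genes of each fit and a threshold of 0.05. A fold on this scale understates the change of low genes. Genotype fits had the pair of the same region and stage as a block, which comes from the labels. Alternatives were a pseudocount of 0.1, no filter, no rescaling, unnamed records added, 1 library or pair left out, no block, 1 genotype alone, and other splits of stage. The fits for stage in small intestine, stomach against small intestine and genotype over all pairs were also run on simulated data with independent noise. The other fits were not simulated.

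The members and lists were chosen with earlier results of these data known. Genes outside the members were named by rule: the called genes of each pathway list with the smallest p, up to 4, or the 2 with the smallest p where none was called, and for each member the 3 genes with the highest Pearson correlation over small intestine libraries. Nags, Sis, Treh and Mgam were named beside that rule. Marker lists were summed per library.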

Additional observations from a re-analysis of the deposited data

Results flagged for a closer look

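With 8 genes in 4 groups of libraries, 32 sets of values were screened for a library far from the rest of its group, and 5 were flagged. Each group pools the stages and parts of an organ in 1 genotype, so its libraries are not replicates. A flag can thus be a difference of stage or part, and no rate of flags by chance is given. Arg2, listed at 0 in all stomach libraries, could not be flagged there. In the wild-type small intestine libraries Arg2 at P20 in bottom intestine, at 17.2 rescaled FPKM, stood far above the next value of 3.32. It is the only library of P20 in that group. In the percc1-/- small intestine libraries bottom intestine at P5 was highest for both Asl (24.9, next 17.6) and Arg1 (3.65, next 1.78). That library also had squamous epithelium markers at 72.7 and neutrophil markers at 41.8, and their part was not tested. In the wild-type stomach libraries bottom stomach at P15 was highest for both Cps1 (6.93, next 0.913) and Otc (0.396, next 0.0871). Its enterocyte markers summed to 159.5, the highest of the 5 wild-type stomach libraries, and their part was not tested.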

How the results depend on the processing

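Of 1516 values of single genes under an alternative, 1483 kept their side of the threshold, 28 lost a call and 5 gained one. The sign changed in 0 values that were called in the main fit or under the alternative. Values called in neither could change sign, as did Otc for stage in small intestine (log2 change from -0.416 to 0.495). The calls lost or gained are those given above for Arg2, Asl, Ass1, Cps1 and Otc, and in addition the large bowel call of Otc was lost with a pseudocount of 0.1 (-2.23, adjusted p = 0.0938) or no filter (adjusted p = 0.0621). The cause was not tested for any of these. Files without counts limit the precision of low genes such as Arg1 and Arg2, and no depth is known.

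For stage in small intestine the 758 genes became 119 in wild type alone, 7 in percc1-/- alone and 478 with P15 and P20 against the rest, and the 2 members (Asl and Arg2) became 0 with unnamed records added or in either genotype alone. With a library left out, 243 (without wild-type top intestine at P15) to 1027 (without percc1-/- bottom intestine at P5) genes and 1 to 3 members were called, and the count was 299 to 459 without wild-type bottom intestine at P1 or P5, wild-type top intestine at P1, or percc1-/- bottom intestine at P1 or P20. For P20 the 6 genes became 11 with no filter, 32 with unnamed records added and 226 in wild type alone, where 2 members were called, and 0 to 127 genes and 0 to 1 members with a library left out. For P15 the 12 genes became 5 with a pseudocount of 0.1 and 0 in wild type alone, and 0 to 7 with a library left out. For P10 the 6 genes became 2 with a pseudocount of 0.1, 15 without rescaling, 3 with unnamed records added and 0 in wild type alone, and 0 to 18 with a library left out.

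For stomach stage the 2273 genes became 414 in wild type alone, and 1144 to 2604 with a library left out (1144 and 1217 without the wild-type or percc1-/- whole stomach of P1, 1489 and 1493 without percc1-/- bottom stomach of P20 or P15). The 2 members became 1 without rescaling, 1 with unnamed records added, 1 in wild type alone, and 1 to 2 with a library left out. Top against bottom intestine called 1 gene, and 0 with a pseudocount of 0.1, 3 without rescaling, 0 in percc1-/- alone and 0 to 7 with a library left out. Large bowel against bottom intestine called 3408 genes, 1588 without wild-type and 3906 without percc1-/- bottom intestine at P5, and 5 to 7 members, Arg2 included, with a library left out.

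For genotype 0 members were called under any alternative run. Without the replicate block the count of genes over all pairs fell from 116 to 22, in stomach from 3 to 1, rose in large bowel from 2 to 4 and for the change with age from 0 to 1. Over all pairs it was 41 without the pairs that differ in hepatocyte markers and 68 to 184 with a pair left out. In small intestine the 15 genes became 5 with a pseudocount of 0.1, 3 with no filter, 4 with unnamed records added and 6 in the P1 and P5 pairs alone, and 2 to 19 with a pair left out. In stomach they became 1 with a pseudocount of 0.1 and 7 without rescaling, and 1 to 3 with a pair left out. In large bowel they became 0 with a pseudocount of 0.1, with no filter or with unnamed records added and 7 without rescaling, and 0 to 1 with a pair left out. For the change with age 1 gene was called with a pseudocount of 0.1 and 0 to 3 with a pair left out, and between stomach and small intestine 4 with no filter and 2 to 3 with a pair left out. The percc1-/- libraries alone, the sum of Ass1 and Gm5424, the P1 and P5 pairs alone and the fits without the stomach pair that differs in enterocyte markers were chosen after seeing the data.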
